A study of Mus musculus with 12 samples.

Results

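The annexins are a family of calcium-dependent membrane-binding proteins, and the transcripts of 9 of their genes, Anxa1 to Anxa8 and Anxa11, were followed in mouse fibroblasts, in sphere cells derived from them and in embryonic stem cells. The 9 members were every gene of that list that the platform annotation named, and each had 1 probe, so they were 9 of the 46657 probes on the array. Of the 9, 8 were above background on all 3 arrays of at least 1 group and entered the test of 9343 genes. Anxa7 did not. The series consisted of 12 Illumina BeadChip arrays in 4 groups of 3. The MEF group was PMEF_NL, neomycin-resistant primary embryo fibroblasts of strain FVB/N. The sphere groups were labelled as converted sphere cells of FVB/N fibroblast origin at passage 5 and at passage 15, and the series title gives AlbuMAX I in the medium as the inducer. The MES group was J11, an embryonic stem cell line of strain 129/Sv, which the study took as its control. The labels give no age, no allele other than neomycin resistance and no statement that the replicates were separate cultures, so the p-values measure only the spread between these samples, which may be technical.

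Annexins share a folded core that, when bound to calcium, docks onto acidic phospholipids on the inner face of membranes. Each member carries its own N-terminal tail, through which it meets partners such as the S100 proteins. In fibroblasts the family is known for work at the plasma membrane, where annexins take part in endocytosis, exocytosis, attachment of the actin cytoskeleton and sealing of membrane tears, and where Anxa2 with S100a10 presents plasminogen activators at the cell surface. Embryonic stem cells grow as compact colonies with little of the stress-fibre and matrix apparatus of a fibroblast.

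Levels are given as normalised log2 intensities, on which 1 unit is a factor of 2, and they are compared only within a gene, because probes differ in brightness. The background of the arrays lay between 4.92 and 5.27 on that scale. A gene was called different at an adjusted p under 0.05 (Benjamini-Hochberg, over all 9343 genes) that went with a 2-fold or larger change, in a limma model of all 12 arrays. The arrays came from 3 chips. Chip 1 carried every passage 15 and MES array. The MEF and passage 5 arrays were split, with replicates 1 and 2 on chip 2 and replicate 3 on chip 3. Chip and group therefore cannot be told apart in any comparison of passage 15 or MES arrays with MEF or passage 5 arrays, and strain and group cannot be told apart in any comparison with MES. Between 15761 and 19060 probes per array were above background.

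The labels were checked with marker genes. The summed level of 9 fibroblast markers (Col1a1, Thy1, Vim and 6 others) was 25209 to 44200 on the MEF arrays, 2999 to 7466 at passage 5, 2659 to 2989 at passage 15 and 4151 to 4953 in MES, on the linear scale. The largest part of each sum came from Vim, with log2 means of 13.98, 11.90, 11.33 and 11.85 in the same order. All 3 arrays of the group were above background for 9, 6, 4 and 4 of these markers in that order, and Col1a1 was above background on no passage 15 array. Markers of pluripotent cells went against the MEF label: 7 of the 8 tested were above background on all 3 arrays labelled MEF. Their summed level was 11606 to 19743 there and 19401 to 21357 at passage 5, which overlapped. At passage 15 it was 23052 to 25362, against 23591 to 25264 in MES. Pou5f1 stood at 11.01 to 11.85 on the MEF arrays, against 12.63 to 12.78 in MES. A second Pou5f1 probe stood at 11.41 to 12.20 in MEF and 11.70 to 11.99 in MES. Zfp42 had means of 10.96 in MEF and 10.32 in MES. For Sox2 they were 8.22 and 8.44 on the probe used, and 8.80 and 7.70 on the other. A set of 6 primitive endoderm markers summed to 5031 to 7015 at passage 5 and to 719 to 1116 in the other groups. Sums of 3 epithelial markers were 658 to 1105 in MEF, 1185 to 1365 at passage 5, 542 to 696 at passage 15 and 1540 to 1865 in MES. Cdh1 had its highest mean in MEF (9.14, against 8.89 in MES, with overlapping arrays). Krt8 and Krt18 had theirs in MES (10.02 and 7.69, against 7.80 and 6.37 in MEF). Sums of 4 endothelial markers were 267 to 405 in MEF and 707 to 1052 in the other groups. Pecam1 gave the largest part of each sum. Only the passage 5 group had all 4 above background on every array, against 2 of the 4 for each remaining group. Cdh5 was above background on passage 5 arrays alone. Of 8 macrophage and blood markers 5 had a probe, and none was above background on all 3 arrays of any group, although Adgre1 was on 1 MEF array and Cd14 on 1 passage 15 array. In bulk RNA of this kind, fewer cells of a type and less RNA per cell cannot be told apart. The part of these other cell types in the annexin differences was not tested.

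Of the 8 tested annexins, 7 had their highest mean level on the MEF arrays, and Anxa11 had its highest at passage 15. Between passage 5 and MEF, 5 of the 8 fell (Anxa1, Anxa2, Anxa3, Anxa5 and Anxa6) and 0 rose, where 6.98% of all genes fell and 4.86% rose. The median log2 difference of the 8 was -1.60, and that of all genes was 0.05. Between passage 15 and MEF, 6 fell (the same 5 and Anxa4) and Anxa11 rose, where 14.3% of all genes fell and 12.2% rose. The median of the 8 was -2.55, against 0.13 for all genes. Between passage 15 and passage 5, 4 fell (Anxa1, Anxa2, Anxa3 and Anxa4) and 0 rose, where 10.3% of all genes fell and 6.73% rose, with a median of -1.21 against 0.01. These comparisons share arrays and are not independent of each other.

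The stem cells served as the last comparison. On the MEF arrays 6 of 8 annexins were higher than in MES and 0 were lower, where 13% of all genes were higher and 8.27% lower, and the median difference was 1.83 against -0.16 for all genes. At passage 5 the median was 0.25 against -0.05, 0 of 8 were called higher and Anxa3 alone was called lower, where 9.96% of all genes were higher and 4.69% lower. After median scaling Anxa2, Anxa4 and Anxa5 were called higher at passage 5, where 29.5% of all genes were then called higher, and Anxa3 was not called. At passage 15 Anxa2 and Anxa3 were lower than in MES and 0 were higher, where 3.54% of all genes were lower and 3.36% higher. The median difference was then -0.65, against 0.01 for all genes.

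**Figure D1:**
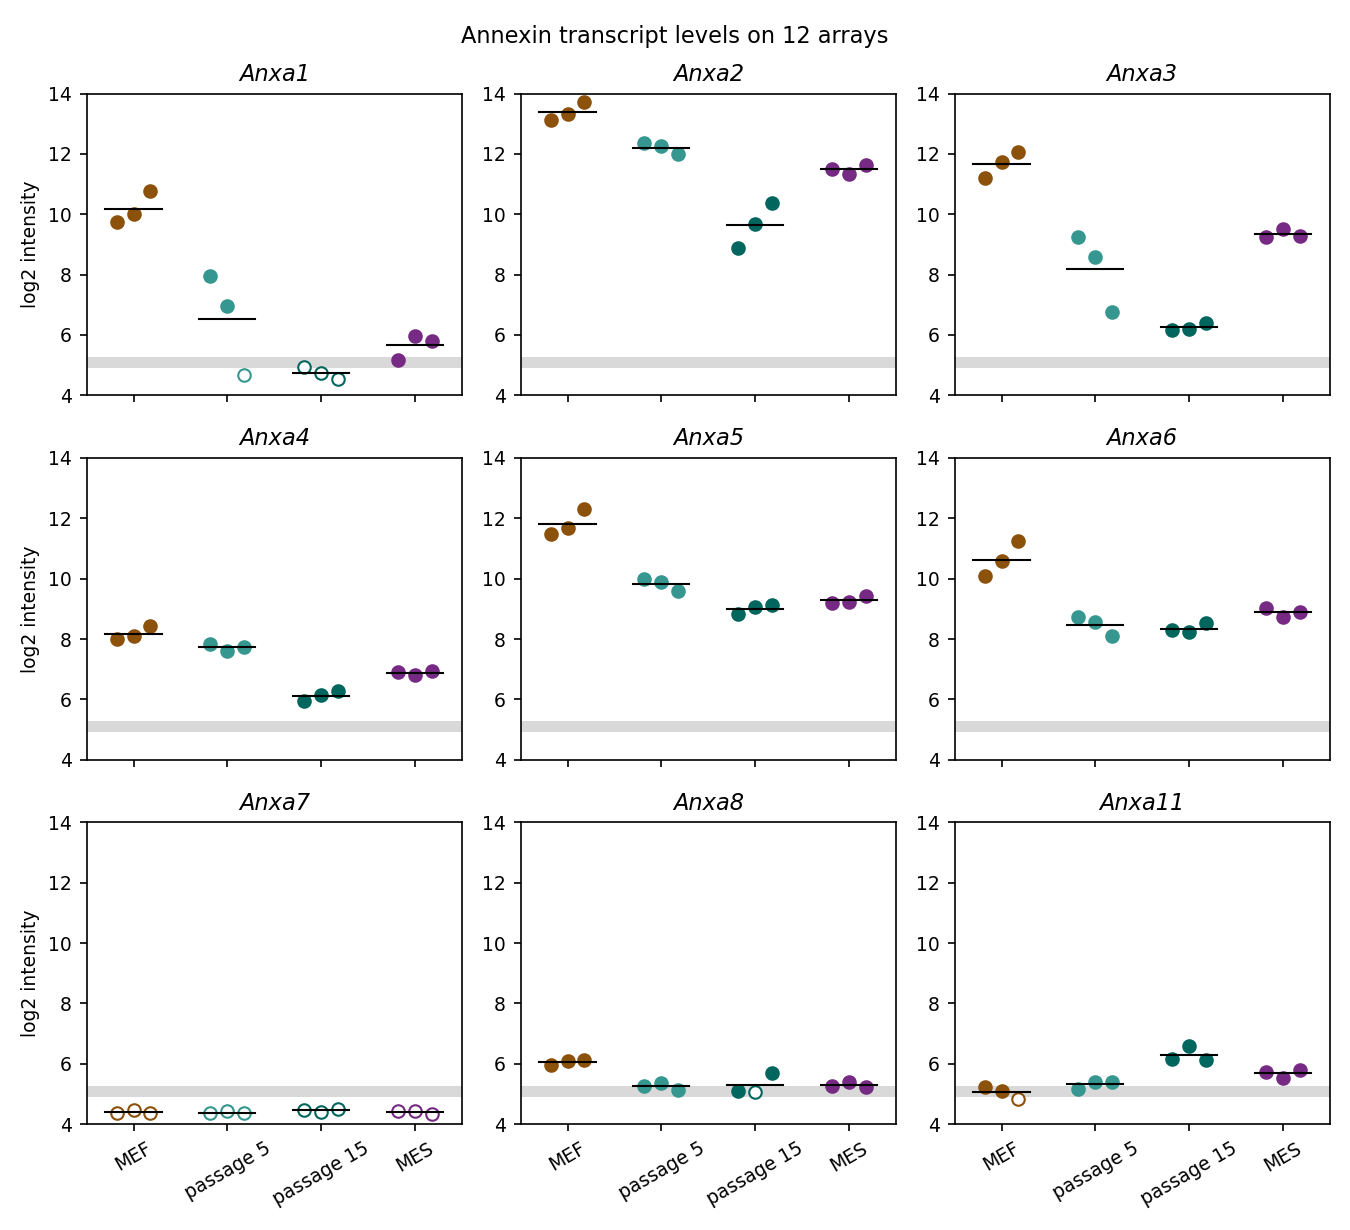
Normalised log2 intensity of the 9 annexin genes on 12 arrays, 3 per group. Points are single arrays, lines are group means, open points are arrays where the probe was not above background, and the grey band spans the array backgrounds (4.92 to 5.27). Anxa1 to Anxa6 and Anxa8 were highest on the MEF arrays, Anxa11 was highest at passage 15, and Anxa7 was below background throughout.

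**Figure D2:**
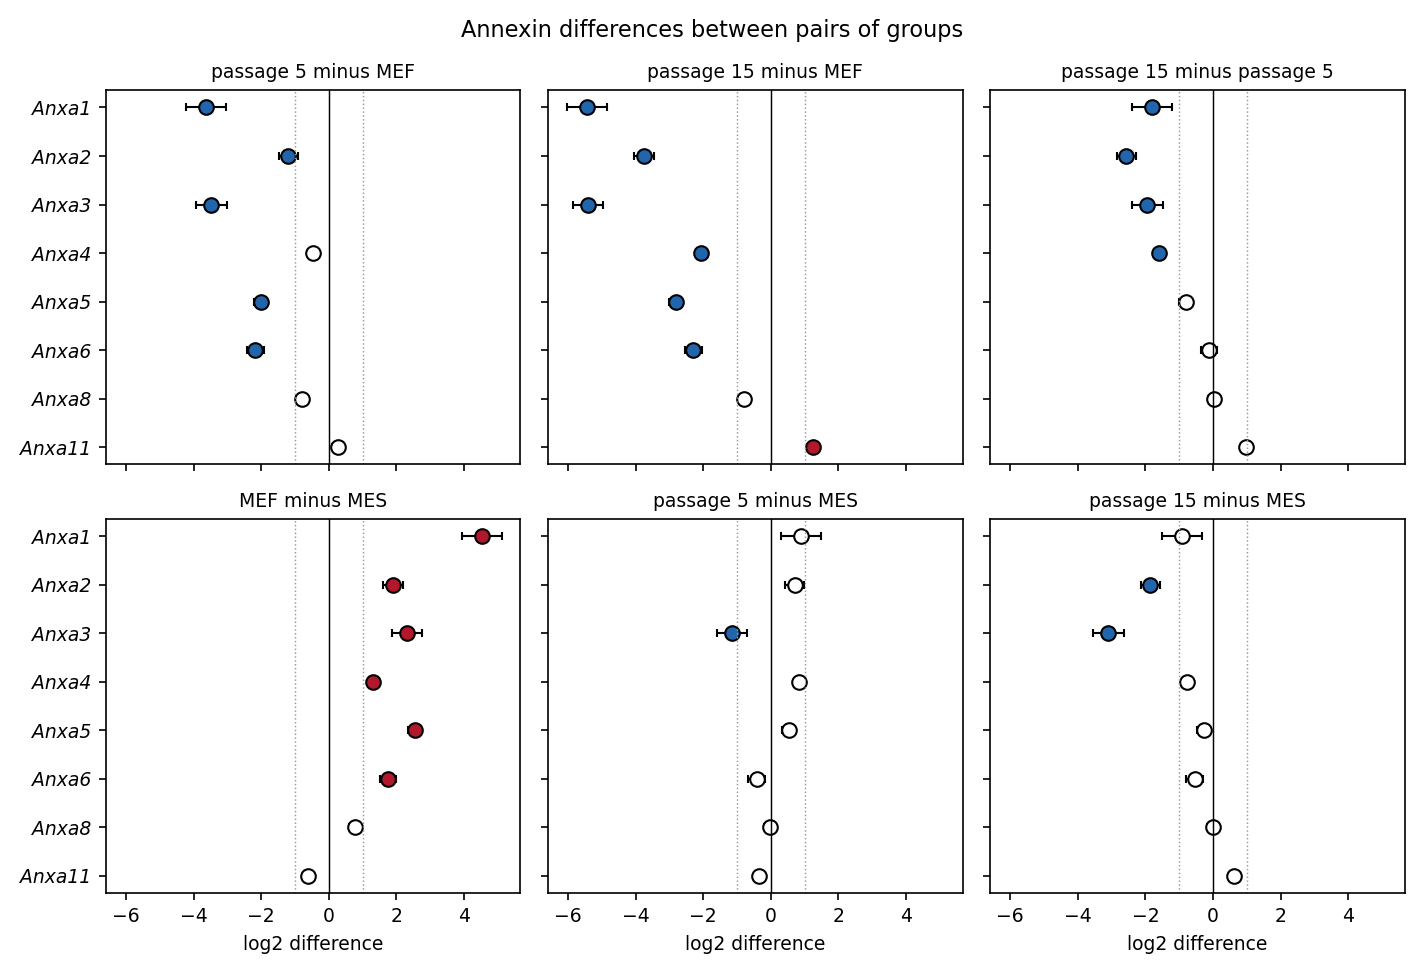
Log2 difference of the 8 tested annexins in 6 comparisons (points) with the SE of the limma model (bars). Filled points were called (blue lower, red higher), open points were not, and dotted lines mark a 2-fold change. In passage 15 against MEF, Anxa3 differed by -5.41, and Anxa1, below background at passage 15, is drawn at its fitted value and was at least 32.4-fold lower.

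Promoter windows were read for the members to show the sequence beside the levels. RefSeq's table (build GRCm38.p6) held 9 windows for 7 of the 9 members, and Anxa3 and Anxa6 had none. The 3 windows shown are those of Anxa1, which was below background at passage 15, of Anxa2, which fell in both steps, and of Anxa11, which rose. Each is the 250 bases before the transcript start, on the strand of the gene. They lie at chr19:20390672-20390921 on the minus strand for Anxa1, chr9:69453433-69453682 on the plus strand for Anxa2 and chr14:25841905-25842154 on the plus strand for Anxa11. Capitals mark matches, on either strand, to TGANTCA (the AP-1 site), GGAATG (the TEAD core) or GGGCGG (the GC box). These motifs do not overlap one another in the windows shown.
Anxa1: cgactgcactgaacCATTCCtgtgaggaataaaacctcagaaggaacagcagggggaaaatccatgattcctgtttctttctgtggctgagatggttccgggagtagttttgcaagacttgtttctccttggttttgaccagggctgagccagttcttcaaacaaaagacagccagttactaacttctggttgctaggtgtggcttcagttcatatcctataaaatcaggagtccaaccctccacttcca
Anxa2: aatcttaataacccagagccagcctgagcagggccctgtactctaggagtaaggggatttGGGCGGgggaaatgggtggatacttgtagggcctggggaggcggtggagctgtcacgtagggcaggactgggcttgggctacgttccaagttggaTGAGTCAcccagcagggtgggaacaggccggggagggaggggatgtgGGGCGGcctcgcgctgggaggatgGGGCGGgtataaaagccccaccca
Anxa11: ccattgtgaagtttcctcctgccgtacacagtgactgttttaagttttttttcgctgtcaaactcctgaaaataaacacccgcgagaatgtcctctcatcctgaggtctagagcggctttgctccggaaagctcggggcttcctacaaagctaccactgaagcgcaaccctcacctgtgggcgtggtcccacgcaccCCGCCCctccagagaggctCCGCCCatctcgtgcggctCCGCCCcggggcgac
The Anxa2 window held 1 AP-1 match, beginning 95 bases before the start, and 3 GC boxes, while the Anxa11 window held 3 GC boxes within 53 bases of the start and the Anxa1 window 1 TEAD match at 236 bases. Of the 9 member windows, 1 held AP-1, 1 held TEAD and 4 held a GC box, and of all 32851 windows of the same length 6.75%, 12.6% and 32.7% held them in that order. The windows with a GC box were those of Anxa2 and Anxa11 and both of Anxa7, which overlap and share 1 GC box. The windows of Anxa4, Anxa5 and Anxa8 held none of the 3 motifs. A match is a description of these letters and not evidence of a bound factor.

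Anxa1, a glucocorticoid-induced protein that restrains inflammation through formyl peptide receptors, was high on the MEF arrays and below background at passage 15. Its log2 levels were 9.76, 10.01 and 10.76 on the MEF arrays, 7.96, 6.96 and 4.69 at passage 5, 4.94, 4.73 and 4.52 at passage 15, and 5.18, 5.96 and 5.81 in MES. Every MEF array stood above every other array, passage 5 replicate 3 was below background while the other passage 5 arrays were well above it, and no passage 15 array was above background. Anxa1 fell by 3.64 (SE 0.59) in passage 5 against MEF, which is 12.5-fold (adjusted p = 3.58e-04). At passage 15 it was at least 32.4-fold lower than in MEF, a bound computed against the array background (adjusted p = 4.66e-06). The MEF arrays were 4.53 (SE 0.59) above MES on the log2 scale (adjusted p = 3.09e-05).

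The passage 5 level of Anxa1 turned on replicate 3. Without that array the fall from MEF was -2.72 and the passage 5 level was 1.81 above MES (adjusted p = 0.0011), against 0.88 (adjusted p = 0.22) with it. Passage 15 was at least 2.60-fold lower than passage 5 (log2 difference -1.80, adjusted p = 0.019), but the arrays overlapped. That call was lost without passage 5 replicate 1 (-1.09, adjusted p = 0.093), without passage 5 replicate 2 (-1.59) and without passage 15 replicate 3 (-1.70). Across all alternative settings it held in 13 of 17. Against MES, passage 15 was lower by a bound of 1.41-fold that did not pass the test (adjusted p = 0.27). The order of the means was MEF, passage 5, MES and passage 15, and of the neighbours in that order only MEF and passage 5 passed the test.

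Anxa2 binds S100a10 as a complex that anchors plasminogen and tissue plasminogen activator at the cell surface. Its levels were 13.13, 13.33 and 13.72 on the MEF arrays, 12.35, 12.25 and 12 at passage 5, 8.88, 9.68 and 10.36 at passage 15, and 11.50, 11.34 and 11.64 in MES. No 2 groups overlapped, and passage 15 was the lowest group and the most spread, with an SD of 0.75 against 0.15 to 0.30 in the others. Anxa2 fell by 1.19 (SE 0.29) in passage 5 against MEF, a 2.28-fold change (adjusted p = 0.0055). It fell by 2.56 (SE 0.29) in passage 15 against passage 5, a 5.91-fold change (adjusted p = 1.66e-05), and the difference of passage 15 from MEF was 13.5-fold (-3.75, adjusted p = 2.92e-07). Passage 15 also stood below the stem cells, by 1.85 (SE 0.29) against MES, a 3.62-fold difference on the same chip (adjusted p = 5.30e-04). Passage 5 was 0.71 above MES and not called (adjusted p = 0.052, 95% interval 0.09 to 1.33). The fall from MEF to passage 5 was under 2-fold on chip 2 alone (-0.93) and after median scaling in place of quantile normalisation (-0.95).

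Anxa3, known from human neutrophils for a part in granule aggregation, had levels of 11.20, 11.72 and 12.07 on the MEF arrays, 9.25, 8.58 and 6.76 at passage 5, 6.16, 6.20 and 6.40 at passage 15, and 9.25, 9.51 and 9.27 in MES. As for Anxa1, passage 5 replicate 3 was far below the other passage 5 arrays and close to passage 15. Anxa3 fell by 3.47 (SE 0.45) in passage 5 against MEF, 11.1-fold (adjusted p = 6.37e-05), and the difference was -2.75 without that replicate. At passage 15 it was 42.6-fold lower than in MEF (-5.41, SE 0.45, adjusted p = 5.76e-07) and 3.85-fold lower than at passage 5 (-1.94, adjusted p = 0.0027). The difference of passage 15 from passage 5 was -2.66 without passage 5 replicate 3.

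The stem cells held more Anxa3 than either sphere stage in mean level. Passage 15 was 8.52-fold below MES (-3.09, SE 0.45, adjusted p = 3.74e-04), with every passage 15 array below every MES array, and this was larger in size than 99.9% of the differences of all genes between those groups. Passage 5 against MES was called at the edge of the threshold (-1.15, adjusted p = 0.047) with overlapping arrays. That call held in 7 of 17 alternative settings, and the difference was -0.43 (adjusted p = 0.17) without passage 5 replicate 3. The MEF arrays were 5.00-fold above MES (2.32, adjusted p = 6.89e-04).

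Anxa4, a regulator of membrane permeability and secretion in epithelia, had its larger step between the sphere stages. Its levels were 7.99, 8.11 and 8.45 on the MEF arrays, 7.84, 7.61 and 7.74 at passage 5, 5.95, 6.16 and 6.27 at passage 15, and 6.89, 6.82 and 6.94 in MES. Groups did not overlap, and the gap between passage 5 and passage 15 was wider than that between MEF and passage 5. In passage 5 against MEF the difference was -0.45 (SE 0.14, adjusted p = 0.023), under 2-fold and not called. Anxa4 fell by 1.60 (SE 0.14) in passage 15 against passage 5, 3.04-fold (adjusted p = 2.84e-06), and differed by -2.06 in passage 15 against MEF (adjusted p = 1.40e-07). It was 2.46-fold higher in MEF than in MES (1.30, adjusted p = 6.86e-06). Passage 5 was 0.84 above MES and passage 15 was 0.76 below it, each past the adjusted p but under 2-fold.

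Anxa5 binds phosphatidylserine, for which it is used as a stain of dying cells, and forms lattices on torn membranes. Its levels were 11.48, 11.70 and 12.30 on the MEF arrays, 9.97, 9.90 and 9.58 at passage 5, 8.83, 9.06 and 9.13 at passage 15, and 9.20, 9.24 and 9.42 in MES. With quantile normalisation, most of the fall lay between MEF and passage 5, and after it the groups were close together without overlapping. Anxa5 fell by 2.01 (SE 0.19) in passage 5 against MEF, 4.02-fold (adjusted p = 5.83e-06), and by 2.82 in passage 15 against MEF, 7.05-fold (adjusted p = 1.37e-07). The MEF arrays were 5.82-fold above MES (2.54, adjusted p = 4.49e-07). In passage 15 against passage 5 the difference was -0.81 (adjusted p = 0.0030), under 2-fold. Median scaling gave -1.66 for that difference, which was then called, and -1.63 for passage 5 against MEF. Passage 15 was 0.28 below MES, a difference that did not pass the test (adjusted p = 0.31, 95% interval -0.69 to 0.14).

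Anxa6, which links membranes with the actin cytoskeleton and with cholesterol handling, had levels of 10.07, 10.57 and 11.25 on the MEF arrays, 8.73, 8.56 and 8.09 at passage 5, 8.28, 8.23 and 8.52 at passage 15, and 9.03, 8.73 and 8.88 in MES. The MEF arrays stood apart, and the sphere stages overlapped. Anxa6 fell by 2.17 (SE 0.25) in passage 5 against MEF, 4.51-fold (adjusted p = 2.24e-05), and by 2.29 in passage 15 against MEF, 4.89-fold (adjusted p = 4.70e-06). Passage 15 differed from passage 5 by -0.12 (adjusted p = 0.71, 95% interval -0.65 to 0.42). Median scaling gave -1.01 for that difference and moved the median of all genes in the same comparison to -0.68. Against MES, passage 5 and passage 15 differed by -0.42 and -0.54, and neither passed the test (adjusted p = 0.17 and 0.13).

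Anxa8, described as an anticoagulant protein of placenta and an annexin of stratified epithelia, was close to background everywhere. Its levels were 5.97, 6.10 and 6.13 on the MEF arrays, 5.27, 5.37 and 5.15 at passage 5, 5.09, 5.07 and 5.70 at passage 15, where 2 of 3 arrays were above background, and 5.26, 5.38 and 5.24 in MES. The MEF arrays lay above all others and the other groups overlapped. The differences from MEF were -0.80 (SE 0.16) at passage 5 and -0.78 at passage 15, past the adjusted p (0.0016 and 8.16e-04) but under 2-fold. Passage 15 against passage 5 (0.02), passage 5 against MES (-0.03) and passage 15 against MES (-0.01) had adjusted p-values of 0.91, 0.87 and 0.97. The offset added before taking logs compresses differences at this brightness.

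Anxa11, which tethers RNA granules to lysosomes and binds S100a6 and Pdcd6, ran the other way. Its levels were 5.25, 5.10 and 4.85 on the MEF arrays, where 2 of 3 were above background, 5.17, 5.41 and 5.40 at passage 5, 6.18, 6.58 and 6.14 at passage 15, and 5.74, 5.52 and 5.80 in MES. Passage 15 was the highest group without overlap. Anxa11 rose by 1.23 (SE 0.16) in passage 15 against MEF, 2.35-fold (adjusted p = 1.64e-05). That call was below 2-fold in the table normalised by the authors (0.72) and after median scaling (0.77). The raw intensities were 27.6 to 58.4 at passage 15, 28.7 to 41.1 at passage 5 and 10.1 to 32.0 on the MEF arrays, so before normalisation passage 15 overlapped both. The difference of passage 15 from passage 5 was 0.97 (adjusted p = 2.13e-04), just under 2-fold, and that from MES was 0.61 (adjusted p = 0.011). Passage 5 against MEF gave 0.27 (adjusted p = 0.21, 95% interval -0.07 to 0.60).

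Anxa7, or synexin, which aggregates secretory granules, was not above background on any of the 12 arrays, with raw intensities of -16.5 to -3.8, and was not tested. The remaining annexin genes with a probe, Anxa9, Anxa10 and Anxa13, which are not members of the list followed here, were also below background on all 12 arrays. A probe below background does not show that its transcript was absent.

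The comparison of passage 5 with MEF is the one that both chips 2 and 3 carried. On chip 2, with 2 arrays against 2, the log2 differences were -2.43 for Anxa1, -2.54 for Anxa3, -1.65 for Anxa5 and -1.68 for Anxa6. On chip 3, with 1 array against 1 and no test, they were -6.07, -5.31, -2.72 and -3.16 in the same order. Each of the 8 annexins kept its own direction on both chips. Anxa11 was higher at passage 5 (0.12 on chip 2 and 0.56 on chip 3) and all others were lower. Each difference was larger in size on chip 3. Passage 5 replicate 3, the chip 3 array, also had the lowest summed fibroblast markers of its group, 2999 against 7466 and 5819 in replicates 1 and 2. MEF replicate 3, on the same chip, had the highest of its group, 44200 against 25209 and 33399, and the lowest summed pluripotent markers, 11606 against 19743 and 17784. The part of these markers' cell types in the annexin values of these arrays was not tested. With chip as a fixed block, the same count of 5 annexins was called between passage 5 and MEF.

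**Figure D3:**
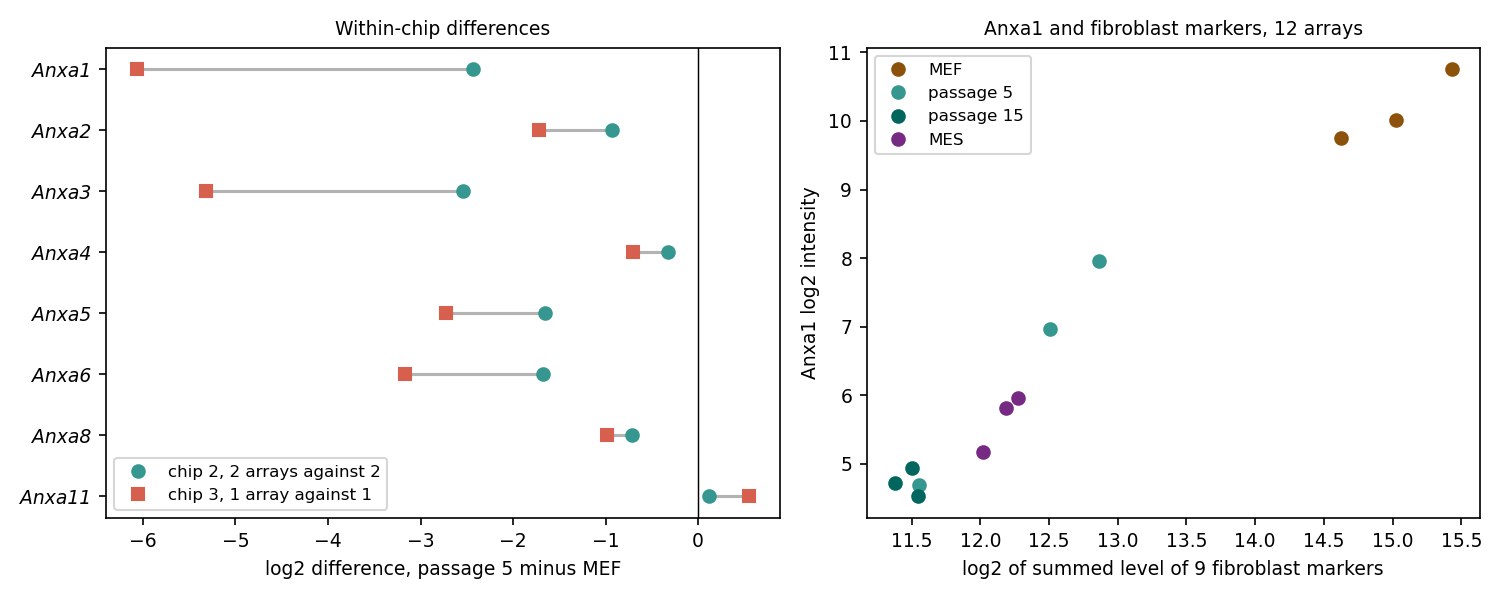
Left, log2 difference between passage 5 and MEF on chip 2 (circles, 2 arrays against 2) and on chip 3 (squares, 1 array against 1). Right, Anxa1 log2 intensity against the log2 of the summed level of 9 fibroblast markers on 12 arrays, of which Vim gave the largest part. Each annexin differed more on chip 3, and passage 5 replicate 3 lay among the passage 15 arrays on the right.

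The members moved together across the 12 arrays, apart from Anxa11. Pearson's r, given as a description over 12 arrays that fall into 4 groups, was 0.97 for Anxa2 with Anxa4, 0.96 for Anxa1 with Anxa5 and 0.93 for Anxa5 with Anxa6. The lowest value among Anxa1 to Anxa6 and Anxa8 was 0.63, for Anxa4 with Anxa8, and Anxa11 ran from -0.95 (with Anxa4) to -0.63 (with Anxa8). Anxa2 and Anxa4 had their larger step between the sphere stages (-2.56 and -1.60, against -1.19 and -0.45 between passage 5 and MEF). With quantile normalisation, Anxa5 and Anxa6 had theirs between passage 5 and MEF (-2.01 and -2.17, against -0.81 and -0.12 between the sphere stages). Median scaling gave -1.63 and -1.66 for Anxa5 in that order, so which of its steps was larger depended on the normalisation.

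Among 9196 other genes, those whose pattern was most like a member over the 12 arrays were led for Anxa1 by Zfp467 (r = 0.993) and the smooth muscle actin gene Acta2 (r = 0.991). Anxa3 was most like Thy1, a surface marker of fibroblasts (r = 0.992), and Dysf, a membrane repair protein (r = 0.989). Anxa4 was most like Clic1, a chloride channel protein (r = 0.995), Dynlt3 (r = 0.989) and the lysosomal protein gene Lamp2 (r = 0.987). Anxa5 was most like Mmd (r = 0.999) and Efna5 (r = 0.998), followed by the matrix proteoglycan gene Vcan (r = 0.994). Anxa2 was most like Slc44a2 (r = 0.974) and Micu2 (r = 0.972), Anxa6 was most like Pmp22 (r = 0.986) and Anxa8 was most like Tceal9 (r = 0.981). Anxa11 was most like Bcas1 (r = 0.967).

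**Figure D4:**
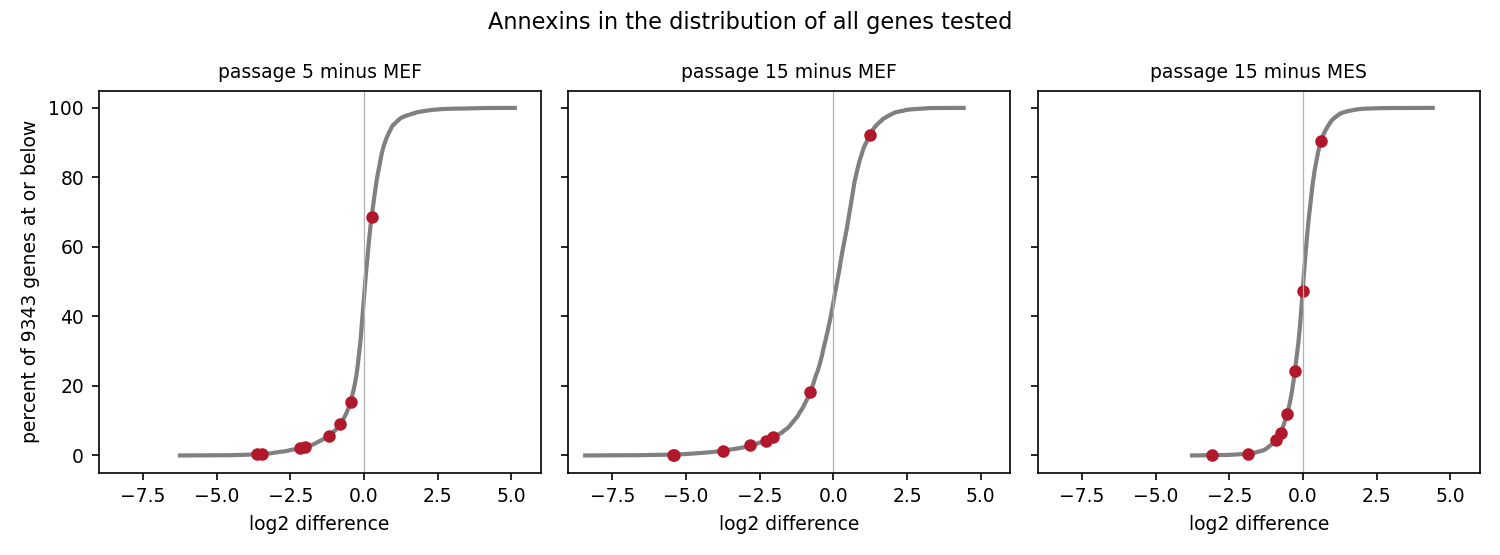
Share of the 9343 genes tested at or below each log2 difference (grey lines), with the 8 annexins as red points, for 3 comparisons. In passage 5 and passage 15 against MEF, 7 of the 8 lay below 0, and in passage 15 against MES Anxa2 and Anxa3 lay at the lower end.

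The S100 and EF-hand partners, calcium-binding proteins that dock on annexin tails, had 7 tested genes of 8. In passage 5 against MEF 3 fell and 1 rose, in passage 15 against MEF 4 fell and 0 rose, and in passage 15 against passage 5 4 fell and 0 rose, with medians of -0.58, -2.29 and -1.24, against 0.05, 0.13 and 0.01 for all genes. Over all genes the shares that fell were 6.98%, 14.3% and 10.3%, and those that rose 4.86%, 12.2% and 6.73%. S100a10, the partner of Anxa2, had levels of 11.97, 11.88 and 12.25 on the MEF arrays, 11.63, 11.39 and 11.31 at passage 5, 9.44, 9.94 and 9.84 at passage 15, and 10.05, 10.02 and 10.04 in MES. Like Anxa2 it was high at passage 5 and low at passage 15. It differed by -0.58 in passage 5 against MEF (adjusted p = 0.0089, under 2-fold) and fell by 1.71 in passage 15 against passage 5 (adjusted p = 3.11e-06). Unlike Anxa2, which was lower, S100a10 at passage 15 differed from MES by -0.30 (adjusted p = 0.17).

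S100a11, the partner of Anxa1, fell by 1.76 in passage 5 against MEF, differed by -3.01 in passage 15 against MEF and by -1.24 in passage 15 against passage 5 (adjusted p = 1.02e-04, 4.65e-07 and 8.91e-04). The last was under 2-fold without passage 5 replicate 1 (-0.97). S100a4, a calcium-binding protein of motile mesenchymal cells, had passage 5 levels of 8.77, 7.95 and 4.77, against 9.88, 10.33 and 10.41 on the MEF arrays, so that replicate 3 was again apart. Without it the difference of passage 5 from MEF was -1.85. S100a4 fell in passage 5 (-3.05, adjusted p = 0.0042) and was at least 33.2-fold lower at passage 15 (adjusted p = 1.32e-05) than in MEF, where no passage 15 array was above background. S100a6, which binds Anxa11 among others, fell in the same comparisons (-2.33 and -2.68) and was lower than MES at both sphere stages (-1.91 and -2.26), while the MEF arrays were 0.42 from MES. Its passage 5 levels were 12.83, 12.35 and 9.15, and without replicate 3 the differences of passage 5 were -1.18 from MEF and -0.76 from MES, the second under 2-fold. The call against MES was also lost without any 1 of the MES arrays at passage 5 (adjusted p = 0.053 to 0.062), and without MES replicate 1 or passage 15 replicate 2 at passage 15 (adjusted p = 0.063 and 0.064). S100a1 was the exception. Its levels were 7.22, 7.83 and 7.97 at passage 5, against 5.78, 5.13 and 4.98 on the MEF arrays, and it rose by 2.38 in passage 5 against MEF and fell by 2.43 in passage 15 against passage 5. Against MES, 4 S100 and EF-hand partners were higher and 0 lower on the MEF arrays, where 13% of all genes were higher and 8.27% lower. At passage 5, 4 partners were higher than in MES and 1 lower, against 9.96% and 4.69% of all genes. At passage 15, 1 was higher than in MES and 1 lower, against 3.36% and 3.54% of all genes. The call of S100a4 at passage 5 against MES (1.79) was lost when any of 5 of the 6 arrays was left out, and held without passage 5 replicate 3 (2.99).

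The plasminogen system, which Anxa2 with S100a10 serves, had 6 tested genes of 8. In passage 5 against MEF and in passage 15 against MEF the same 3 genes fell and 0 rose. The medians of the list were -0.93 and -1.37, against 0.05 and 0.13 for all genes. Of all genes 6.98% and 14.3% fell, and 4.86% and 12.2% rose. Plat, tissue plasminogen activator, differed by -1.18 at passage 5 and was at least 5.17-fold lower at passage 15, where it was below background. Plau, urokinase, differed by -2.07 and -2.47 and the urokinase receptor gene Plaur by -1.24 and -1.85 at passage 5 and passage 15. Both Plat without MEF replicate 3 (-0.76) and Plaur without passage 5 replicate 3 (-0.93) were under 2-fold at passage 5. In passage 15 against passage 5 Plat was the 1 gene called, at least 2.28-fold lower, where 10.3% of all genes fell and 6.73% rose. Plat was below background in MES too. Against MES, Plat (at least 5.31-fold) and Plau (2.97 on the log2 scale) were higher on the MEF arrays. At passage 5 Plat was higher than in MES (at least 2.34-fold) and Plaur lower (-2.04). At passage 15 Plaur was lower than in MES (-2.65). Of all genes 13%, 9.96% and 3.36% were higher than in MES in that order, and 8.27%, 4.69% and 3.54% lower.

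The membrane repair genes had 10 tested of 15. In passage 5 against MEF 3 fell and 0 rose, where 6.98% of all genes fell and 4.86% rose. The median of the list was 0.06, against 0.05 for all genes. Those that fell were Cav1, the scaffold of caveolae, (-4.56, or -3.89 without passage 5 replicate 3), Dysf (-1.72) and the calpain subunit gene Capn2 (-1.50). In passage 15 against MEF 4 fell and 1 rose, where 14.3% of all genes fell and 12.2% rose. Those that fell were led by Cav1 (at least 80.5-fold lower, below background at passage 15), Dysf (-2.82) and Capn2 (-2.38). Capns1, the small calpain subunit, rose by 1.60. The Capn2 values are from the brightest of 3 kept probes. Another Capn2 probe, with means of 7.32 in MEF, 6.98 at passage 5 and 7.57 at passage 15, was not lower at passage 15. The third had means of 8.77, 7.35 and 7.49 in the same order. In passage 15 against passage 5 3 fell and 2 rose, where 10.3% of all genes fell and 6.73% rose. Those that fell were led by Cav1 (at least 3.40-fold lower) and Vps4b (-2.14), a sorting ATPase. Those that rose were Cavin1 (at least 2.70-fold higher, from below background at passage 5) and Capns1 (1.31). The difference of Dysf was under 2-fold without passage 5 replicate 1 (-0.76) or passage 15 replicate 3. Cav1 and Cavin1, both needed for caveolae, thus differed in opposite directions between the sphere stages. Against MES, 4 repair genes were higher and 2 lower on the MEF arrays, where 13% of all genes were higher and 8.27% lower. At passage 5, 2 repair genes were higher than in MES and 2 lower, against 9.96% and 4.69% of all genes. At passage 15, 0 were higher than in MES and 2 lower, against 3.36% and 3.54% of all genes.

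Of the arachidonic acid genes, Ptgs2, the inducible cyclooxygenase, was the 1 tested of 4. Its levels were 8.44, 8.69 and 9.58 on the MEF arrays, 7.07, 6.21 and 4.91 at passage 5, 4.71, 4.89 and 4.47 at passage 15, and 5.07, 4.71 and 4.72 in MES. It fell in passage 5 (-2.84, adjusted p = 1.8e-04) against MEF and was at least 13.4-fold lower at passage 15, where it was below background, and it shared with Anxa1 the low passage 5 replicate 3. Of the formyl peptide receptors, which bind Anxa1, 1 of 3 had a probe, and that probe was not kept.

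**Figure D5:**
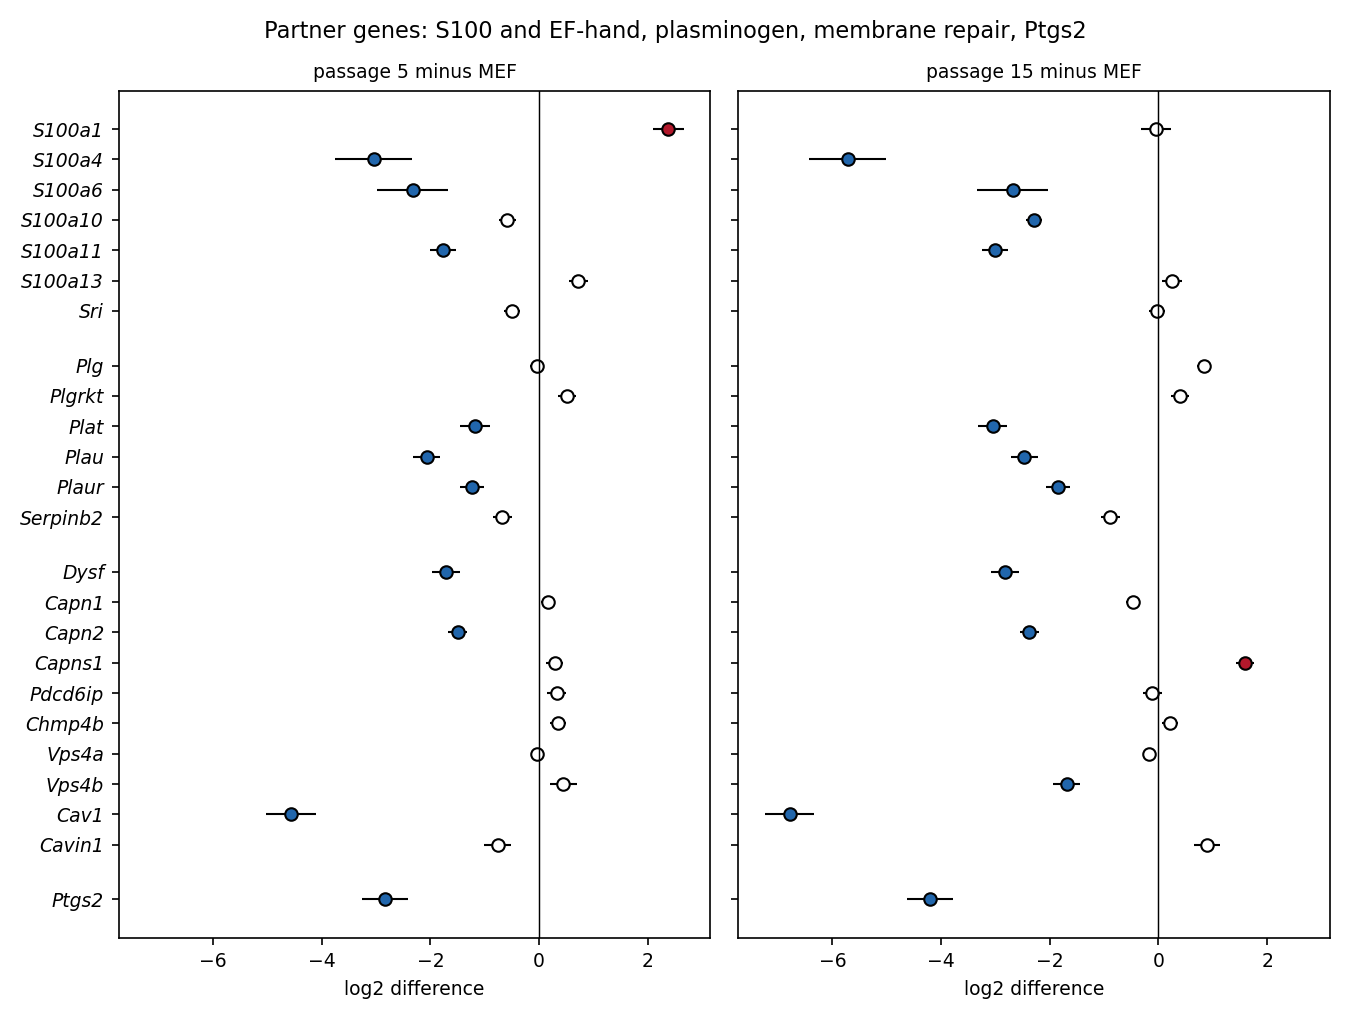
Log2 difference from MEF of the partner genes tested, with the SE of the limma model (bars), in blocks for S100 and EF-hand partners, plasminogen activation, membrane repair and Ptgs2. Filled points were called (blue lower, red higher). S100a10 and Vps4b were called lower at passage 15 and not at passage 5.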

How the data were processed

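Trizol and RNeasy columns gave total RNA, from which biotinylated cRNA was made, per the labels. The authors deposited a raw intensity per probe (linear, background already subtracted, since all 12 arrays hold values below 0) with a detection p-value, per the file headers, and a normalised log2 table. How the log2 values were normalised is not given in the sources used here, and the deposited series matrix holds the same values.

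Intensities were corrected and quantile normalised with neqc (limma 3.58.1, R 4.3.3, offset 16, negative controls inferred from detection p). Of 46657 probes, 20 with a date in place of a value were left out. A probe was kept where 1 group or more had a detection p under 0.05 on each of its 3 arrays (19444 probes, of which 12156 had a gene). The brightest kept probe stood for each of 9343 genes. One limma model of 12 arrays (8 residual and 4.98 prior degrees of freedom) gave 6 comparisons. The model was tested on simulated data. Bounds ("at least") use the array background where no array of a group was above it. The number of arrays limits the precision.

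The members, partner lists and marker lists were chosen with earlier results of these data known. All members are described. Named partners are at most 4 per list and comparison, by largest called change, apart from S100a10 and Ptgs2, which were followed throughout. The genes most alike are from the 5 highest Pearson correlations per member. The rule's checks of labels were Col1a1, Thy1, Vim, Pou5f1, Sox2 and Zfp42. Alternatives were the authors' table, median scaling, other background and filter settings, chip and replicate blocks, and leaving out each array. The replicate numbers were not used as pairs in the main model. Deviations of same-numbered MEF and passage 5 arrays correlated at 0.041, 0.272 and 0.138. Differently numbered arrays, over all pairs of groups, gave -0.265 to 0.181. These values do not settle whether the numbers paired the samples, because same-numbered MEF and passage 5 arrays also shared a chip.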

Additional observations from a re-analysis of the deposited data

How the results depend on the processing

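Of the counts of called genes, 198 stayed within 1.5 times their value and 10 moved. Of the values of single annexins, 790 kept direction and side of the threshold, 18 lost a call, 12 gained one, 12 changed sign and 8 moved without a test. The count of annexins called in passage 5 against MES (1) was 3 with median scaling and 0 without further background correction, without the detection filter, with only the 2 groups compared, with chip as a random block (correlation within chip 0.121) and with a replicate block. It was 0 to 1 with 1 array left out, and without passage 5 replicate 3 the gene called was Anxa1 and not Anxa3. Partner genes called in passage 15 against passage 5 numbered 17 with median scaling, against 11 with quantile normalisation, and annexins called there numbered 6 against 4, while calls over all genes made up 34.2% against 17.0%. For the partner genes, settings other than leaving out an array, and the values of single genes without an array, were added after seeing the data.

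Median scaling changed the sign of Anxa8 in passage 15 against passage 5 (-0.33) and, in passage 5 against MES, of Anxa6 (0.40), Anxa8 (0.30) and Anxa11 (0.10). It moved the median of all genes to 0.30 for passage 5 against MEF, -0.32 for passage 15 against MEF, -0.68 for passage 15 against passage 5, 0.25 for MEF against MES, 0.61 for passage 5 against MES and -0.01 for passage 15 against MES. The share of calls that were higher went with it, in the same order, to 64.0%, 15.8%, 3.60%, 90.4%, 98.4% and 46.1%, where quantile normalisation gave 41.0%, 46.1%, 39.5%, 61.2%, 68.0% and 48.7%. Leaving out 1 array changed the sign of values near 0: Anxa6 in passage 15 against passage 5 (-0.30 to 0.019), and Anxa8 in passage 15 against passage 5 (-0.18 to 0.13), passage 5 against MES (-0.084 to 0.025) and passage 15 against MES (-0.22 to 0.10). The cause of these changes was not tested. The replicate block changed no other count of annexins, and in MEF against passage 5 arrays 2 of 3 numbers correlated best with their own. Signal over background limits Anxa8 and Anxa11, and each member rests on 1 probe.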
